A study of Saccharomyces cerevisiae with 160 samples.

Results

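The replication checkpoint arrest of *cdc8* cells was followed as it was established, by comparing transcript levels late in the time course with those of the first wave of cell-cycle transcription in the same cultures. The comparison used 16 of the 160 arrays of the series, all from strain *cdc8*: 3 arrays per culture at 90, 100 and 110 min after release (6 in all, the first wave) and 5 arrays per culture at 180, 200, 220, 240 and 260 min (10 in all, the arrest), in 2 cultures. The samples were chosen by strain and time alone. The change of a probe set was its mean log2 intensity at the arrest minus its mean log2 intensity in the first wave, taken within each culture and then averaged over the 2 cultures.

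Strain *cdc8* was labelled BF264-15DU MATa; cdc8-ts, and the study's methods give it the wild-type *BAR1* gene. Cdc8 is thymidylate kinase, so the temperature-sensitive allele starves the cells of dTTP, and early G1 cells were collected by centrifugal elutriation and released in dextrose medium with sorbitol at the restrictive temperature. Changes in 2 other strains served to show where *cdc8* cells differed. The spread between their cultures also entered the standard errors and p-values of the *cdc8* changes. Strain *cdc20* is bar1, its own *CDC20* gene is deleted (cdc20::LEU2), and a copy under a galactose promoter stands in for it (Pgall-CDC20::ADE2), beside a tubulin marker, CFP-TUB1::URA3. Dextrose shuts that promoter off, so the cells run out of Cdc20, the activator of the anaphase promoting complex, and stop with replicated DNA. Strain *rad53* carries the same alleles plus cdc8ts and rad53-1, so that its replication block lacks the activity of the checkpoint kinase Rad53. Strain *cdc8cdc20*, with cdc8ts and without rad53-1, had 1 culture, which was fitted with a mean of its own and so adds nothing to the estimate of spread, and its changes were not tested. All strains share the MATa BF264-15DU background and elutriation. The other strains differ from *cdc8* cells also in *BAR1*, in marker genes, in the shift from galactose and in the clock times of the windows, and these differences cannot be told apart from the strains' named alleles. The labels number 2 cultures of *cdc8* as replicates and say no more of their origin. The p-values measure the spread between such cultures, pooled over *cdc8*, *cdc20* and *rad53* (3 residual degrees of freedom). The arrays of 1 culture are repeated looks at it (n = 2 *cdc8* cultures throughout).

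When forks stall, the budding yeast kinase Mec1 activates Rad53, which activates Dun1. Dun1 removes the ribonucleotide reductase inhibitor Sml1 and inactivates the repressor Rfx1 (Crt1), and the genes for the reductase and for other damage-induced proteins are then transcribed. Rad53 also holds back late origins and, with other branches of the pathway, anaphase. A cell-cycle wave of transcription runs beside this: SBF and MBF switch on genes of budding and replication in late G1, and forkhead factors switch on the *CLB2* cluster in mitosis.

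The 16 arrays were alike in scale, with median intensities of 1057 to 1130, and within a window and culture the log2 values of any pair of arrays correlated at r of 0.984 to 0.997 across probe sets. The 6 a-specific marker genes summed to intensities of 31590 to 62028 in the first wave and 29338 to 37978 at the arrest, where 4 were lower. The 4 alpha-specific genes summed to 1606 to 2118 and 1299 to 2137, and the 3 galactose genes to 503 to 563 and 645 to 753. The 6 meiotic genes summed to 661 to 857 and 1116 to 1477, with 5 higher at the arrest, and no marker was listed at 0. Because these are bulk samples, fewer cells of a kind and less RNA per cell cannot be told apart. *CDC8*, whose allele is a point mutation and whose transcript therefore does not check the label, was at 1257–1503 in the first wave and 1083–1264 at the arrest.

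Most of the measured transcriptome differed between the first wave and the arrest. Of 5716 yeast probe sets, 3847 changed at an adjusted p of at most 0.05 (67.3%), with 1865 higher at the arrest (32.6%) and 1982 lower (34.7%). The test was limma on the within-culture differences, with p-values adjusted by Benjamini-Hochberg over all yeast probe sets. Every probe set it called moved the same way in both cultures, which is largely built in, since a call rests on the mean of these 2 changes. In the same fit, 3512 probe sets changed in *cdc20* cells and 3847 in *rad53* cells between their own windows. No cycling culture was compared, so time after release cannot be told apart from the arrest. Changes of at least 2-fold were fewer and uneven, 524 in all (9.17%): 356 probe sets were higher by that much (6.23%) and 168 lower (2.94%). The 2-fold falls depended on the culture, with 116 when only culture 1 was used for this strain and 269 when only culture 2 was used. The changes of the cultures correlated at r = 0.958 across the 5716 probe sets, which are not independent replicates. The median change over all probe sets was -0.014 on the log2 scale. The shares of 32.6% higher and 34.7% lower are the measure for the list counts that follow. The arrays of the windows did not overlap in either culture for 3160 probe sets (55.3%).

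**Figure D1:**
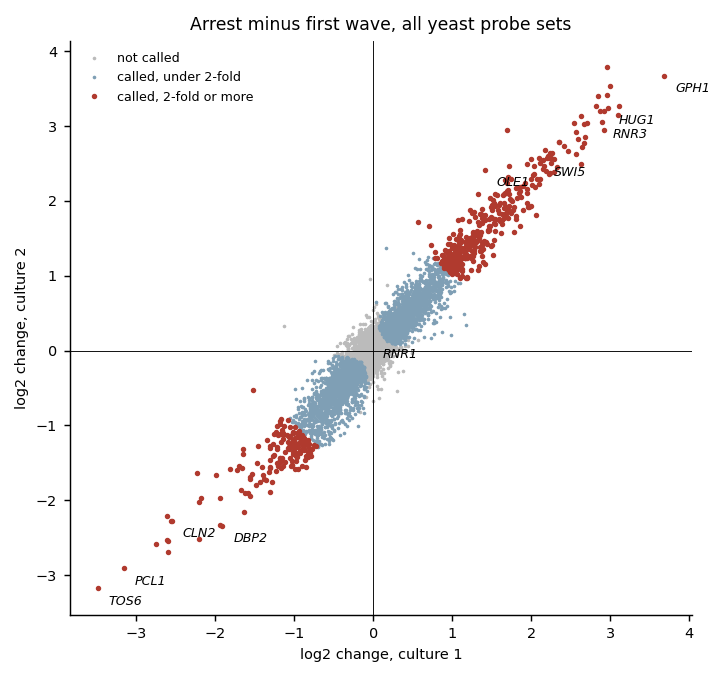
Log2 change (arrest minus first wave) of each of the 5716 yeast probe sets in culture 1 (x axis) and culture 2 (y axis); red points passed the test with a mean change of at least 2-fold, blue points passed with a smaller change, and grey points did not pass. The points lie along a rising diagonal (r = 0.958), with the red ones at both ends and *RNR1* close to the origin.

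Much of the change came before the arrest window. By 120 to 160 min, the 356 probe sets with 2-fold rises had covered a median of 68.2% of their change in culture 1 and 57.3% in culture 2. The 168 with 2-fold falls had covered 77.8% and 61.8%. For 240 of the 356, the arrest mean was above the mean at 30 and 50 min in both cultures, and for 126 it was above every array up to 110 min. Of the 168 that fell, 98 had an arrest mean below that at 30 and 50 min in both cultures, and 41 below every array up to 110 min.

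**Figure D2:**
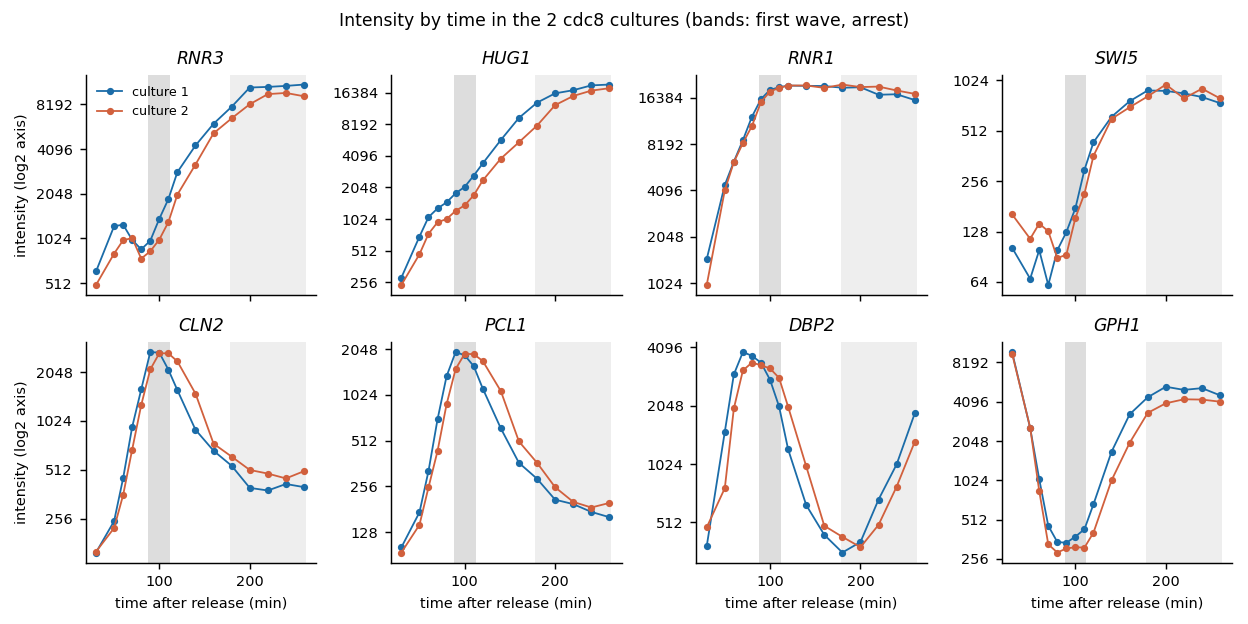
Intensity (log2 axis) against time after release (min) for 8 genes, with 1 line per *cdc8* culture and 1 point per array; the dark band is the first wave and the light band the arrest. *RNR3* and *SWI5* climb from about 100 min, *HUG1* climbs throughout, *RNR1* stays level from the first wave on, *CLN2* and *PCL1* fall after the first wave, *DBP2* falls and then climbs again, and *GPH1* returns from a trough.

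Genes of the DNA damage response were among those that rose most. Of 15 probe sets on a list of damage-induced genes, 12 rose (against 32.6% of all probe sets) and none fell, with a median change of 0.89, and 6 rose at least 2-fold. *HUG1*, which encodes a small inhibitor of ribonucleotide reductase, had a lowest, median and highest intensity of 1224, 1762 and 2651 over the 6 first-wave arrays and of 7935, 16581 and 19510.0 over the 10 arrest arrays. The ranges do not overlap, and the lowest arrest value, in culture 2 at 180 min, is well above the highest first-wave value. Its change was 3.11 ± 0.097 (SE, n = 2 cultures, adjusted p = 2.5e-06), which is an 8.63-fold rise. *RNR3*, which encodes the damage-inducible large subunit of the reductase, went from 838, 1162 and 1883 to 6597, 9693 and 11141. Its ranges were also apart, its change was 2.97 ± 0.07 (SE, n = 2 cultures, adjusted p = 1.6e-06), and at 120 min it had reached 2864 in culture 1 and 2020 in culture 2. The small subunits behaved alike, since *RNR2* rose from 10119, 12262 and 15939 to 25695, 28274 and 30654 (change 1.17) and *RNR4* from 10886, 13922 and 18267 to 21566, 25755 and 27370.0 (change 0.86). For both small subunits every arrest array was brighter than every first-wave array.

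The repair genes on the list gave a more mixed picture. *MAG1*, a DNA glycosylase for alkylated bases, rose from 294–442 to 983–1403 (change 1.62, adjusted p = 9.2e-06). *PHR1*, the photolyase, rose by 1.02, *RAD16* and *RAD2*, of nucleotide excision repair, by 0.89 and 0.84, and *RAD54*, of recombination, by 0.36. *DIN7*, a mitochondrial nuclease, rose by 0.90, and the polyubiquitin gene *UBI4* by 1.42. Not every repair gene responded: *RAD23*, *RAD7* and the repressor gene *RFX1* had changes of -0.095, 0.016 and 0.043 and did not pass the test. *MAG1*, *RAD2*, *PHR1* and *UBI4* were brighter at the start of the course than in the first wave, with *UBI4* at 8852 and 9176 over 30 and 50 min, whereas *HUG1* was at 490.3 and 357.

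The kinase that relays the signal to these genes rose a little. *DUN1* was at 1428, 1973 and 2417 in the first wave and at 2658, 2910.0 and 3099 at the arrest, with no overlap (change 0.58 ± 0.071, SE, n = 2 cultures, adjusted p = 0.00032). *RAD53* was at 595, 734 and 821 in the first wave and at 474, 608 and 653 at the arrest, which overlap, with a change of -0.32 (adjusted p = 0.0067). Among 19 probe sets for checkpoint kinases and mediators, 2 rose and 9 fell (32.6% and 34.7% of all probe sets), and 8 did not pass. The falls included the fork protection genes *TOF1* (-0.92), *MRC1* (-0.78) and *CSM3* (-0.32), and *DPB11* (-0.35), which links replication initiation to checkpoint signalling. The other rise was of *SML1*, which encodes the reductase inhibitor that Dun1 targets, from 6590.1–8227 to 10046–13744 (change 0.75).

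Other nucleotide supply genes were mixed. *RNR1*, which encodes the main large subunit, had intensities of 15407, 18261 and 19204 in the first wave and 15867, 18695 and 20013 at the arrest. The ranges nearly coincide, and the change of 0.05 ± 0.077 (SE, n = 2 cultures) did not pass the test (adjusted p = 0.59). Of 15 probe sets for nucleotide reduction and thymidylate synthesis, 6 rose and 7 fell (32.6% and 34.7% of all probe sets). The falls were of thymidylate synthase (*CDC21*, -0.52), dCMP deaminase (*DCD1*, -0.83), dUTPase (*DUT1*, -0.74), dihydrofolate reductase (*DFR1*, -0.24) and *CDC8* itself (-0.26), all on the route to dTTP, and of the kinases *URA6* (-0.58) and *GUK1* (-0.45). The call of *DFR1* was lost under 6 of the alternatives, with changes of -0.19 at quantile normalization and -0.16 without culture 1, and that of *CDC8* was lost without culture 1 (-0.18). *DCD1* fell furthest of these, from 1122–1342 in the first wave to 674–718 at the arrest. *WTM1*, which holds the small subunits in the nucleus, rose from 3134–4062 to 6155–10256 (change 1.20). Its counterpart *DIF1*, which imports them, did not pass (change 0.20, adjusted p = 0.28).

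The first wave itself went down. Of 23 probe sets for targets of SBF, the late G1 factor made of Swi4 and Swi6, 19 fell (against 34.7% of all) and none rose, with a median change of -1.26, and 12 fell at least 2-fold. *CLN2*, a G1 cyclin gene, was at 2118, 2671 and 2718 in the first wave and at 383, 470.1 and 618 at the arrest. The ranges are far apart, and the change was -2.41 ± 0.08 (SE, n = 2 cultures, adjusted p = 2.6e-06), a 5.32-fold fall. *PCL1*, a cyclin of the kinase Pho85, went from 1515, 1882 and 1958 to 161, 201 and 366 (change -3.03), and *TOS6*, a cell wall protein gene with the largest fall of all named genes, from 9436, 12256 and 13635 to 695, 1111 and 2504 (change -3.33). Their arrest medians stood above the start of the course, where *PCL1* was at 137 and 119 and *TOS6* at 930.1 and 614 (means of 30 and 50 min in the 2 cultures). *YOX1*, which encodes a repressor of Mcm1 targets, fell by 2.57, *AXL2*, a landmark of axial budding, by 2.57, *CSI2* by 2.65, *SVS1* by 2.42, *PRY2* by 2.67 and *CLN1* by 1.83, each with no overlap between the windows. The fall of *SWI4* was smaller: 767–919 became 274–579 (change -1.03).

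MBF, made of Mbp1 and Swi6, drives genes of DNA replication in the same wave. Of 32 probe sets for its targets, 27 fell, 1 rose and 4 did not pass. Their median change was -0.68, and 3 fell at least 2-fold. The fall was partial. At the start of the course the list median, relative to the first wave, was -2.06 in culture 1 and -2.13 in culture 2. At the arrest it was -0.66 in each culture, so the list stayed above its starting level. *POL12*, a subunit of DNA polymerase alpha, went from 1890.0, 2118 and 2288 to 801, 883 and 919 (change -1.27), *POL30*, which encodes PCNA, from 9551, 11060.0 and 12039 to 4462, 4963 and 5266 (change -1.17), and the S phase cyclin gene *CLB5* from 1313, 1443 and 1516 to 587, 637 and 651 (change -1.20). None of these ranges overlap. The 4 that did not pass include *RNR1* and the MBF co-repressor gene *NRM1*, which was at 643–1617 in the first wave and 1214–1497 at the arrest (change 0.28, adjusted p = 0.079). The 1 that rose was *PLM2*, which encodes a forkhead-associated domain protein of the damage response. It went from 419, 840.3 and 1424 to 1501, 1674 and 1989, a change of 0.73 in culture 1 and 1.41 in culture 2, and in each culture its brightest first-wave array was the one at 110 min.

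**Figure D3:**
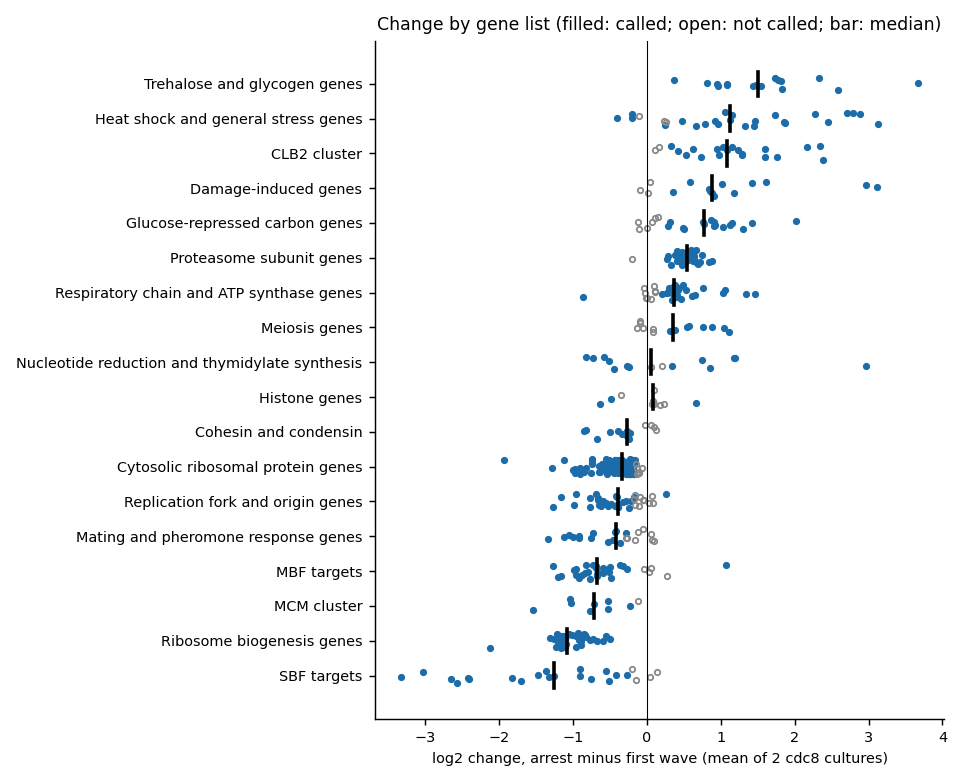
Log2 change (arrest minus first wave, mean of the 2 *cdc8* cultures) of every probe set on 18 gene lists, 1 point per probe set; filled points passed the test, open points did not, and black bars are list medians. Trehalose and glycogen genes lie highest (median 1.51), and SBF targets lie lowest (median -1.26).

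Genes of the replication machinery fell with the wave. Of 37 probe sets for fork and origin proteins, 26 fell and 1 rose. After *POL12* and *POL30*, the falls were led by *DPB2* (-0.99) and *POL2* (-0.77), of DNA polymerase epsilon, *POL1* (-0.96), the catalytic subunit of polymerase alpha, and *RFC5* (-0.77), of the clamp loader. The *MCM* cluster, a group that Mcm1 drives at the end of mitosis, had 8 of 9 probe sets lower, and 3 of them at least 2-fold. *MCM3*, a subunit of the replicative helicase, went from 1378, 1983 and 2482 to 521, 665 and 838 (change -1.55 ± 0.16, SE, n = 2 cultures, adjusted p = 0.00016). The helicase genes *MCM6* (-1.03), *MCM2* (-0.77), *MCM4* (-0.71) and *MCM5* (-0.53) fell less, and only the ranges of *MCM5* overlapped. Of 14 probe sets for cohesin and condensin, 10 fell and none rose, with the loader gene *SCC2* at -0.85 and the cohesin genes *SMC3* and *MCD1* at -0.82 and -0.68.

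Most histone genes did not change past the test. Of 10 histone probe sets, 7 did not pass, 2 fell and 1 rose. The 1 that rose was *HHT1*, a histone H3 gene, at 5437, 5914 and 7305 in the first wave and 9264, 9837 and 10273 at the arrest, with no overlap (change 0.66 ± 0.14, SE, n = 2 cultures, adjusted p = 0.0042). *HHF1*, for H4, was at 7433–11834 and 10934–12259, and *HTB1*, for H2B, at 7296–9359 and 8397–9747, and neither passed the test. *HTA1*, for H2A, fell from 5461–7319.9 to 3739–4482 (change -0.64), and the variant *HTZ1* fell by 0.49. The list has no settled direction, since its median was -0.065 in culture 1 and 0.22 in culture 2. *HTA1* and *HTA2* share sequence, so their probe sets may not be wholly separate.

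Mitotic genes of the forkhead programme rose. Of 21 probe sets of the *CLB2* cluster, which forkhead factors and Ndd1 control, 19 rose and none fell, with a median change of 1.09, and 12 rose at least 2-fold. *SWI5*, which encodes a factor for cell separation genes, was at 92.9, 165 and 299 in the first wave and at 749.7, 840.3 and 968 at the arrest. The ranges are well apart, and the change was 2.35 ± 0.13 (SE, n = 2 cultures, adjusted p = 1.4e-05). The mitotic cyclin gene *CLB1* went from 181, 321 and 489 to 922, 1054 and 1165 (change 1.76) and *CLB2* from 217, 379.5 and 638 to 663, 781 and 1009 (change 1.15 ± 0.095, SE, n = 2 cultures, adjusted p = 5.7e-05), the latter with only a narrow gap between the windows. *SWI5* was already climbing in the first wave, and in each culture its brightest first-wave array was the one at 110 min. Genes of cytokinesis in the cluster rose too: *CHS2*, the chitin synthase of the primary septum, went from 247, 330.5 and 434 to 1447, 1718 and 1836 (change 2.39), and *HOF1*, which links the septum to the actomyosin ring, rose by 2.16. The kinase genes *ALK1* and *KIN3* rose by 1.60 and 1.59, the polo kinase gene *CDC5* by 1.23 and *CDC20* by 1.09. Among the genes of the regulators, *FKH1* (-0.0084), *FKH2* (0.14) and *NDD1* (-0.15) did not pass, and *MCM1* fell by 0.51. *MBP1*, of the late G1 factor MBF and not of this programme, did not pass either (-0.03). In the first wave every *CLB2* cluster gene named here was below 1098.5, the median intensity over all probe sets and the 16 arrays.

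Other mitotic groups were split, against 32.6% of all probe sets higher and 34.7% lower. Of 37 spindle, spindle pole and kinetochore probe sets, 8 rose and 17 fell. *ASE1*, the midzone bundling protein, and the kinesin gene *KIP2* rose (0.83 and 0.63), and *BIM1*, *CTF19* and *TUB4* fell (-0.78, -0.76 and -0.74). Of 30 mitotic exit and anaphase probe sets, 11 rose and 8 fell. *SPO12* rose from 413–522 to 1030.1–1747 (change 1.57) and the mitotic exit kinase gene *DBF2* by 0.73, whereas the phosphatase gene *CDC14* fell by 0.58 and the spindle checkpoint gene *BUB3* by 0.68.

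*DSE1*, a gene of daughter cell separation, was among the 15 largest falls and went from 319, 410.3 and 572 to 50.3, 77.4 and 119.6 (change -2.41). It had been higher still at the start, at 1575 and 1175. *SIC1*, which encodes an inhibitor of CDK1, was at 323–400.3 and 301–412, and its change of 0.081 did not pass (adjusted p = 0.25). *ASH1*, which encodes a repressor of mating type switching in daughter cells, fell by 0.76.

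Among 21 cyclin and CDK1 regulator probe sets, 4 rose and 11 fell (32.6% and 34.7% of all probe sets). *CLB6* fell by 0.96 and *CLB3* by 0.44, *CLB4*, *CLN3* and *CDC28* did not pass (-0.18, -0.12 and -0.089), and the morphogenesis kinase genes *SWE1* and *HSL1* fell by 0.91 and 0.59. Of the 17 network factor probe sets 3 rose (*SWI5*, *PLM2* and *YHP1*), 9 fell and 5 did not pass. *YHP1*, which encodes a repressor related to Yox1, had a change of 0.58, opposite in sign to the -2.57 of *YOX1*. *HCM1*, a forkhead factor of S phase, fell by 0.51.

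Genes of budding and of the cell wall were divided. *GIN4*, a septin kinase, went from 2152–2609 to 868–1183 (adjusted p = 3.1e-05), and the bud site genes *BUD9* and *RSR1* fell by 1.34 and 0.91. *SCW10*, a cell wall glucanase-like protein, dropped from 10268, 11252 and 12089 to 2279, 2632 and 4133 (change -2.07), and the crosslinkers of chitin and glucan, *CRH1* and *UTR2*, fell by 1.26 and 1.31. In the other direction *PST1*, a wall protein induced by cell wall stress, rose by 1.69, and *HPF1*, a wall mannoprotein, rose from 842, 1942 and 3597 to 13789, 15935 and 18049 (change 3.12). On the cell wall list 12 of 30 probe sets rose and 9 fell, near the shares of all probe sets (32.6% and 34.7%). On the polarity and septin list 7 of 26 rose and 13 fell.

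Genes for making ribosomes fell as a block. All 40 probe sets for ribosome biogenesis were lower at the arrest, with a median change of -1.09 and 23 down at least 2-fold. *DBP2*, an RNA helicase, was at 2031, 3022 and 3418 in the first wave and at 358, 585 and 1871 at the arrest (change -2.13 ± 0.11, SE, n = 2 cultures, adjusted p = 1.1e-05). *NOP56*, of the box C/D snoRNP, went from 5444–6675 to 1756–3314 (change -1.31), and *RPA135*, of RNA polymerase I, from 6879–10590.0 to 2567–5819.8 (change -1.25). The fall was deeper in culture 2, where the list median was -1.25 against -0.82 in culture 1. Cytosolic ribosomal protein genes fell by less: 134 of 142 probe sets were lower and none higher, with a median of -0.34, and with quantile normalization 105 were lower. Paralogous ribosomal protein genes share much of their sequence, so single pairs are uncertain. Among the 4 that fell at least 2-fold were *RPL22B* (-1.28), *RPS14B* (-1.12) and *RPL41A* (-1.93), which is dim here at 333–864 and 87.2–235. Several genes of nucleotide synthesis and salvage fell too: *URA7*, of CTP synthesis, fell by 1.52, *URA1* by 1.33, *AAH1*, the adenine deaminase, by 2.14, and the GTP synthesis genes *IMD4* and *GUA1* by 0.97 and 0.74.

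Genes of protein breakdown rose. Of 32 proteasome probe sets, 31 were higher, with a median of 0.54, a lowest change of -0.20 and none at 2-fold. *RPT2* rose from 1616–2127 to 2923–3781 (change 0.88), *PRE1* from 3294–4662 to 6207–7785 (change 0.84) and *RPT1* by 0.73. The 1 member that did not pass, singled out after its value was seen, was the gene for the proteasome transcription factor Rpn4. Mitochondrial ribosomal protein genes changed little, with 18 of 43 higher, 1 lower (32.6% and 34.7% of all probe sets) and a median of 0.18.

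**Figure D4:**
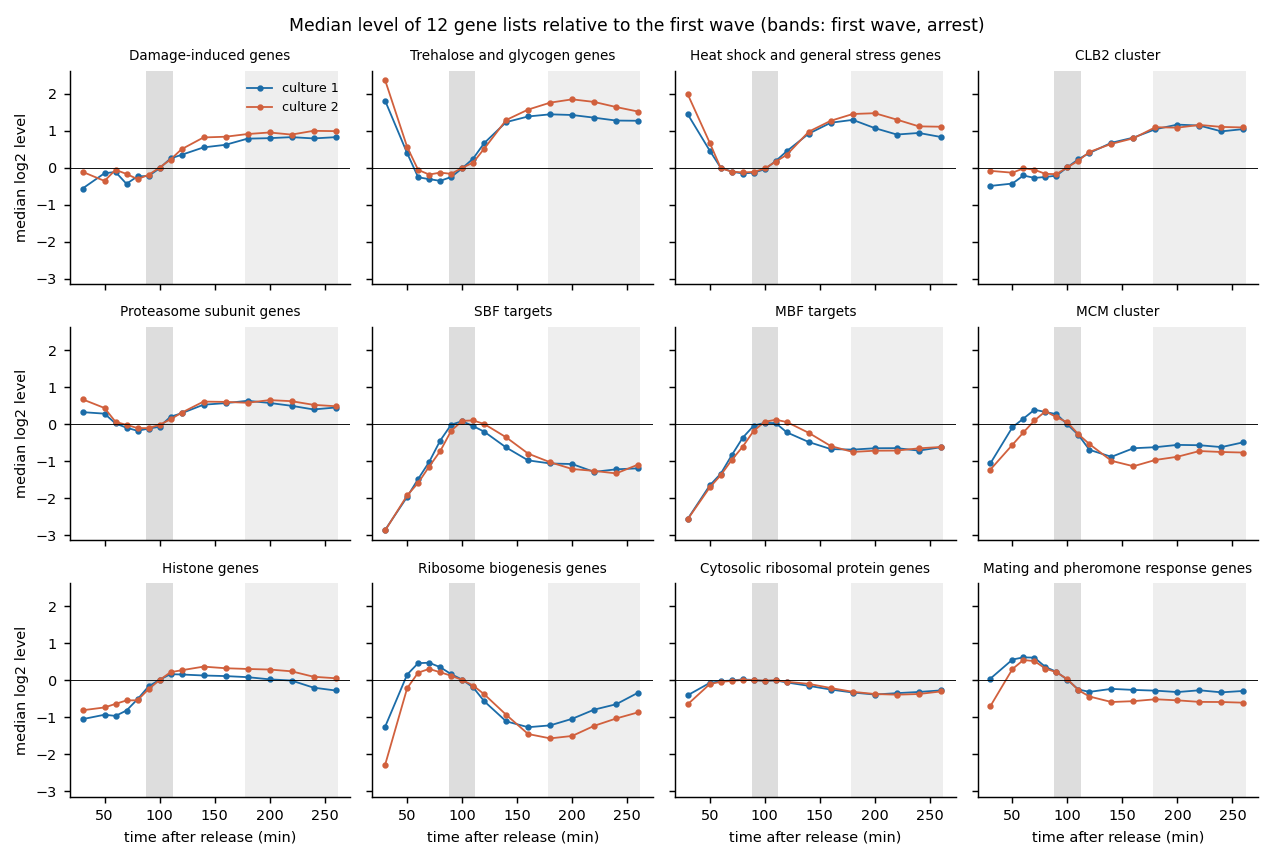
Median log2 level of 12 gene lists at each array of the 2 *cdc8* cultures, relative to the first-wave mean, against time after release (min); dark band, first wave; light band, arrest. Stress and storage genes return from a trough, and the *CLB2* cluster and damage-induced genes settle on a plateau. SBF, MBF and *MCM* cluster genes fall and stay below the first wave. The SBF and MBF medians nonetheless stay above their levels at the start of the course. Ribosome biogenesis genes start below the first wave, rise above it, fall to about 180 min and then climb.

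Most stress and storage carbohydrate genes rose. All 16 trehalose and glycogen probe sets rose, with a median change of 1.51 and 12 up at least 2-fold, and of 27 heat shock and general stress probe sets 21 rose, 3 fell and 15 were up at least 2-fold. *GPH1*, glycogen phosphorylase, had the largest rise of all named genes. It was at 308, 328 and 432 in the first wave and at 3368, 4358 and 5340.4 at the arrest (change 3.68 ± 0.19, SE, n = 2 cultures, adjusted p = 1.1e-05), a 12.8-fold rise, and its start means were 6209.5 and 6096. *GDB1*, the glycogen debranching enzyme, rose from 622–762 to 3600.2–4496 (change 2.59), and *PGM2*, phosphoglucomutase, by 2.33, *GSY2*, glycogen synthase, by 1.83 and *GLC3*, the branching enzyme, by 1.78. Genes of both synthesis and breakdown of glycogen rose together.

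*HSP26*, a small heat shock protein, went from 618, 942 and 1276 to 3895, 8462 and 12986 (change 3.12 ± 0.19, SE, n = 2 cultures, adjusted p = 1.8e-05), and its arrest arrays spanned a wide range. *CTT1*, cytosolic catalase, rose by 2.28, the aldehyde dehydrogenase gene *ALD3* by 2.45, *SOL4*, of the pentose phosphate pathway, by 2.89 and *SIP18* by 2.79. These 4 genes were higher still at the start, with *CTT1* at 8592 and 10081 over 30 and 50 min against 3609.6–7669 at the arrest, and *SIP18* at 3356 and 3772 against 337–747. *HSP26* differed, since its arrest median of 8462 was above its start means of 3380.0 and 3025. *RTN2* (3.37), *FMP16* (3.27), *EGO4* (3.19), *TKL2* (3.06), the minor transketolase, *GAD1* (3.04), glutamate decarboxylase, *TFS1* (2.85), *GPG1* (2.87) and *YMR196W* (3.03) were also among the largest rises. Their windows did not overlap, which was a condition for entering this ranking. The peroxiredoxin gene *TSA2* rose from 572–642 to 3417–4478 (change 2.73), above its start means of 2515 and 3104, and on the oxidative stress list 12 of 19 probe sets rose and 3 fell.

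Carbon genes that high glucose represses rose. Of 22 probe sets 16 rose and none fell, with a median of 0.77. *HXK1*, hexokinase 1, went from 3335–6707 to 14354–21390.0 (change 2.02), *GLK1*, glucokinase, rose by 1.31, the invertase gene *SUC2* by 1.12 and the activator gene *CAT8* by 1.03. *SUC2* and *CAT8* stayed dim, at 215–366 and 161–203. Among hexose transporters, *HXT5* rose by 1.99 and *HXT7*, which shares sequence with its neighbour *HXT6*, by 1.36, and *HXT3* was bright throughout, at 13234–14998 and 17824–20509. Respiratory chain and ATP synthase genes rose in 25 of 34 probe sets, with a median of 0.36. Succinate dehydrogenase led them (*SDH4* 1.46, *SDH2* 1.34, *SDH1* 1.03), and *CYC1*, cytochrome c, was the only one to fall (7856–10070.0 to 3907–5684, change -0.86).

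Several other pathways had clear members but no common direction. Their list counts stand against 32.6% higher and 34.7% lower over all probe sets. *ADE17*, of purine and one-carbon metabolism, rose from 2242, 2835 and 3815 to 5569, 6787 and 8559 (change 1.24) and *ADE12* by 0.56, on a list with 5 rises and 8 falls in 20 probe sets. *URA10*, the minor orotate phosphoribosyltransferase, rose by 1.85, while its major form *URA5* fell by 0.32. *OLE1*, the fatty acid desaturase, rose from 1633, 2024 and 3978 to 5265, 9048 and 14163, by 1.42 in culture 1 and 2.41 in culture 2, and *OPI3*, of phosphatidylcholine synthesis, by 1.93. Of 27 ergosterol and fatty acid probe sets 13 rose and 3 fell. Amino acid synthesis genes fell in 14 of 33 probe sets and rose in 6, with *ARG1* and *ARG3*, of arginine synthesis, up by 0.92 and 0.76 and *LYS4* and *ILV3* down by 1.10 and 0.73. Among sulfur genes 7 of 24 rose and 6 fell, and among iron uptake genes 9 of 19 rose and 3 fell, with *FET4*, a low-affinity transporter, up by 1.08 and *FTR1*, of high-affinity uptake, down by 0.88. Secreted acid phosphatase genes rose, *PHO5* from 368–446 to 507–2488 and *PHO11* from 4727–7150.1 to 7966–12397, on a phosphate list with 5 rises and 7 falls in 17 probe sets.

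Mating genes fell. Of 22 mating and pheromone response probe sets 14 fell and none rose, against 34.7% and 32.6% of all probe sets. *FUS1*, a cell fusion gene, went from 531, 742 and 1034 to 211, 282 and 433 (change -1.33 ± 0.11, SE, n = 2 cultures, adjusted p = 4.8e-05), *FAR1*, which stops the G1 cyclins in response to pheromone, fell by 1.00, *SST2*, which desensitises the receptor pathway, by 1.06, and *STE12*, the transcription factor, by 0.92. Meiotic genes rose in 8 of 14 probe sets (against 32.6% of all) from very low levels. *SPO11*, the meiotic nuclease, went from 73.4–82.6 to 129.5–195 and *DMC1*, the meiotic recombinase, from 71.0–119.8 to 158–228. These intensities lie below 442, the level under which the dimmest 20% of all probe sets fell. Of 13 housekeeping probe sets 6 rose and none fell (32.6% and 34.7% of all), and their changes were small, as for *PGK1* (0.27) and *TUB2* (0.35).

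Within the arrest window fewer probe sets moved past the test, and most of those turned back. The mean of the last 2 arrays (240 and 260 min) was set against that of the first 2 (180 and 200 min), and 390 probe sets differed at an adjusted p of at most 0.05 in limma (6.82%), 316 higher late (5.53%) and 74 lower (1.29%). Of the 390, 279 moved against their change from the first wave and 66 with it. Without 1 *cdc8* culture the count was 116 (culture 1 left out) or 114 (culture 2 left out), of which 106 and 91 were among the 390, so this count is far less firm than that of the changes. Only 8 of the calls were 2-fold or more. Ribosome biogenesis genes were prominent, with 33 of 40 higher late and a median of 0.60. *DBP2* climbed in culture 1 from 358.3 at 180 min to 1871 at 260 min and in culture 2 from 431.6 to 1335, a late rise of 1.59 (adjusted p = 0.00093), and *URA7* and *AAH1*, which had fallen with the biogenesis genes, rose late by 0.74 and 0.98. *PHO5* and *PHO3*, acid phosphatases, rose late by 1.61 and 1.36, the former from 594.6 to 2488 in culture 1 and from 507.3 to 2178 in culture 2. The cell wall gene *PIR3* and *NCA3* rose late by 1.20 and 1.12, and *HSP26* and *HUG1* by 1.11 and 0.62. *TOS6* went on falling (-1.11). Of 27 heat shock and general stress probe sets 5 fell late and 1 rose, and of 16 trehalose and glycogen probe sets 2 fell and none rose. *ALD3* (-0.85), *FMP45* (-0.92) and the transporter gene *HXT7* (-0.90) fell late, as did *CTT1* (-0.63), whose call was lost when either *cdc8* culture was left out (-0.57 and -0.70). *CHA1*, a serine and threonine deaminase gene, fell late by 0.99 and *IZH4* by 0.99.

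The change of *cdc8* cells differed from the same change in Cdc20-depleted cells for 2801 of 5716 probe sets (49.0%), 1395 higher in *cdc8* cells (24.4%) and 1406 lower (24.6%). From *rad53* cells it differed for 2955 (51.7%), 1619 higher (28.3%) and 1336 lower (23.4%). Both comparisons are limma contrasts of the strains' changes, with the windows at 80 to 120 and 180 to 260 min in *cdc20* cells and at 54 to 90 and 144 to 216 min in *rad53* cells, and both use the same *cdc8* cultures. Without 1 *cdc20* culture, 1861 or 1933 probe sets differed between *cdc8* and *cdc20* cells.

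**Figure D5:**
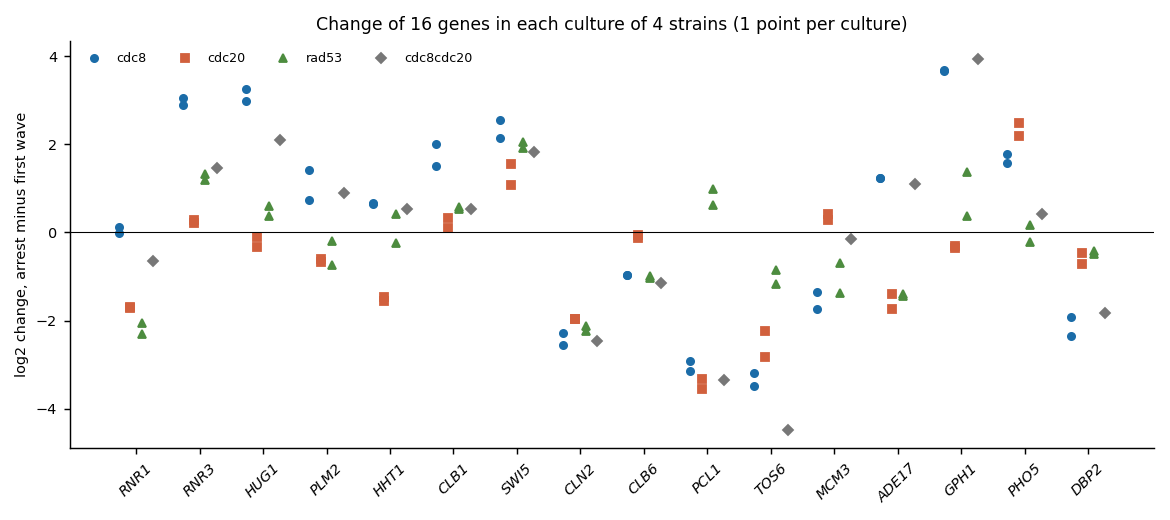
Log2 change (arrest minus first wave) of 16 genes, 1 point per culture, in strains *cdc8*, *cdc20*, *rad53* and *cdc8cdc20*. Genes for which the *cdc8* cultures stand above both *cdc20* and *rad53* cultures include *RNR1*, *RNR3*, *HUG1*, *PLM2*, *CLB1*, *ADE17*, *GPH1* and, narrowly, *SWI5*. They stand below both for *DBP2*. The single *cdc8cdc20* culture was not tested.

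Several damage-induced genes differed from both strains. *HUG1* changed by 2.97 and 3.25 in the *cdc8* cultures, by -0.32 and -0.098 in the *cdc20* cultures and by 0.37 and 0.60 in the *rad53* cultures. The *cdc8* cultures are clear of the others, with differences of 3.32 ± 0.14 (SE) from *cdc20* (adjusted p = 4.1e-05) and 2.62 ± 0.14 from *rad53* (adjusted p = 7.7e-05). For *RNR3* the differences were 2.72 and 1.71, and *rad53* cells, which also have cdc8ts, still showed changes of 1.33 and 1.19. *RNR1* separated the strains although it did not change in *cdc8* cells past the test: its changes were -0.016 and 0.11 in *cdc8*, -1.71 and -1.69 in *cdc20* and -2.30 and -2.06 in *rad53* cultures, and both differences passed (1.75 and 2.23, adjusted p = 9.6e-05 and 7.6e-05). *DUN1* (0.49 and 0.91), *PLM2* (1.71 and 1.53) and *NRM1* (0.76 and 1.30) also moved higher in *cdc8* cells than in either strain. On the damage-induced list, 12 of 15 probe sets moved higher and 1 lower than in *cdc20* cells (24.4% and 24.6% of all probe sets). Compared with *rad53* cells, 9 moved higher and 3 lower (28.3% and 23.4% of all). The list had median changes of 0.89, 0.20 and 0.35 in the *cdc8*, *cdc20* and *rad53* strains. In the single culture of *cdc8cdc20*, which was not tested, it was 0.69. *MAG1* and *UBI4* rose in *cdc20* cells too (1.49 and 1.13), and their differences from *cdc20* did not pass (adjusted p = 0.38 and 0.19).

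Histone genes separated *cdc8* from *cdc20* cells. Of 10 probe sets 7 moved higher (24.4% of all probe sets) and none lower in *cdc8* than in *cdc20* cells, where the median change was -1.11. *HHT1* changed by 0.66 and 0.65 in *cdc8* cultures and by -1.56 and -1.45 in *cdc20* cultures (difference 2.16 ± 0.20, adjusted p = 0.00032). Against *rad53* cells 2 of the 10 moved higher and 1 lower (28.3% and 23.4% of all probe sets). The *MCM* cluster went the other way, with 8 of 9 probe sets moving lower and 1 higher in *cdc8* than in *cdc20* cells (24.6% and 24.4% of all). *MCM3* changed by -1.36 and -1.73 in *cdc8* and by 0.41 and 0.28 in *cdc20* cultures, and *MCM4* by -0.61 and -0.81 and by 0.54 and 0.74. The cluster's median change was -0.71 in *cdc8*, 0.30 in *cdc20* and -0.42 in *rad53* cells. In the single culture of *cdc8cdc20*, which was not tested, it was -0.11. The cohesin gene *MCD1* fell less in *cdc8* (-0.68) than in *cdc20* cells (-2.10), with a difference of 1.43.

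Some targets of the G1 factors differed widely from *rad53* cells. *PCL1* changed by -3.15 and -2.91 in *cdc8* cultures and by 0.99 and 0.62 in *rad53* cultures (difference -3.84 ± 0.15, adjusted p = 4.5e-05), but by -3.33 and -3.54 in *cdc20* cultures, where the difference of 0.41 did not pass (adjusted p = 0.061) but passed under 6 of the alternatives, at 0.41 to 0.93. *AXL2* fell by 2.57 in *cdc8* cells and changed by -0.14 in *rad53* cells, and *SVS1* by 2.42 against -0.46. *CLN2* fell in all 3 strains, with changes of -2.41, -1.96 and -2.17, and its difference from *rad53* did not pass (adjusted p = 0.12). Of the 23 SBF probe sets, 10 moved lower than in *rad53* cells and 5 higher, against 23.4% and 28.3% of all probe sets. The list also differed from *cdc20* cells, with 10 lower and 1 higher (24.6% and 24.4% of all). Its median difference was -0.28 from *cdc20* and -0.20 from *rad53* cells. Of the 32 MBF probe sets 10 moved higher, a share near that of all probe sets, and 3 lower. *CLB6* fell in *cdc8* and *rad53* cells (-0.96 and -1.01) and changed by -0.091 in *cdc20* cells.

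The mitotic genes *CLB2* and *SWI5* rose in all 3 strains. *CLB1* changed by 1.52 and 2.01 in *cdc8* cultures against 0.094 and 0.32 in *cdc20* and 0.53 and 0.58 in *rad53* cultures, and both differences passed (adjusted p = 0.00053 and 0.0012). For *CLB2* the changes were 1.15, 0.66 and 0.90, and for *SWI5* 2.15 and 2.55 in *cdc8*, 1.09 and 1.55 in *cdc20* and 2.06 and 1.91 in *rad53* cultures, and the differences from *rad53* did not pass for either gene (adjusted p = 0.15 and 0.14). *DSE1* changed by -2.41 in *cdc8* cells, by -0.56 in *cdc20* cells and by 0.39 in *rad53* cells, and both differences passed (adjusted p = 0.00016 and 7.6e-05).

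Storage and metabolic genes gave some of the widest gaps. *GPH1* changed by 3.68 and 3.67 in *cdc8*, -0.32 and -0.35 in *cdc20* and 0.38 and 1.36 in *rad53* cultures, and the difference was 4.01 from *cdc20* and 2.81 from *rad53* (adjusted p = 0.00013 and 0.00042). Trehalose and glycogen genes as a list had median changes of 1.51 in *cdc8*, 0.52 in *cdc20* and 0.72 in *rad53* cells, and 2.18 in the single culture of *cdc8cdc20*. Of the 16, 11 moved higher and 1 lower in *cdc8* than in *cdc20* cells (24.4% and 24.6% of all probe sets). Against *rad53* cells 9 moved higher and 3 lower (28.3% and 23.4% of all). The *HSP26* change in *rad53* cells was 3.26, and the difference of -0.14 did not pass (adjusted p = 0.68). By contrast, *HSP42*, another small heat shock protein, and *BTN2* moved higher in *rad53* than in *cdc8* cells (differences -2.87 and -2.82). Of 27 heat shock and general stress probe sets, 8 moved higher and 12 lower than in *rad53* cells (28.3% and 23.4% of all). From *cdc20* cells 15 differed upward and 9 downward (24.4% and 24.6% of all). The list medians were 1.13 in *cdc8*, 0.31 in *cdc20* and 1.63 in *rad53* cells, and 1.58 in the single culture of *cdc8cdc20*. *EMP46* and *FMP16* were among the genes with the widest gap to *cdc20* cells (differences 3.15 and 3.61). *MMP1*, a permease gene for S-methylmethionine, *HMS2* and *MET17*, of sulfur assimilation, had gaps the other way (-2.29, -2.12 and -1.86). *FRE7*, a metalloreductase gene, rose in *cdc8* cells (1.69 and 2.95) and changed by -1.31 and -1.49 in *rad53* cultures, and *FRE4*, of the same family, and *MPC3*, a mitochondrial pyruvate carrier gene, had the opposite sign of difference (-2.99 and -3.06). Ribosome biogenesis genes moved lower in *cdc8* than in *cdc20* cells for 20 of 40 probe sets and higher for 1 (24.6% and 24.4% of all). They moved lower than in *rad53* cells for 30 and higher for none (23.4% and 28.3% of all). The median change of the biogenesis list was -1.09 in *cdc8* cells and -0.99 in the single culture of *cdc8cdc20*, which was not tested. Respiratory genes moved higher than in *cdc20* cells for 26 of 34 and lower for 1 (24.4% and 24.6% of all). They moved higher than in *rad53* cells for 20 and lower for 2 (28.3% and 23.4% of all). Proteasome genes moved lower than in *rad53* cells for 21 of 32 and higher for none (23.4% and 28.3% of all).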

How the data were processed

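RNA of elutriated budding yeast cultures was measured on Affymetrix Yeast 2.0 arrays, 1 array per time point. Per the labels and the study's methods, the authors normalized the arrays together in dChip style with affy 1.32.1 (invariant set, perfect match probes only, Li-Wong summary, no background correction) and masked the Schizosaccharomyces pombe probes, and they deposited linear intensity values, which were used as deposited. The methods name either of 2 labelling kits, and which culture had which is not given in the sources used here. The genome build of the probe design is not given in the sources used here, and no coordinates or sequences were used. All 160 columns of the table were matched to a sample, and 0 were left over.

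Of 5900 probe sets, 184 controls were left out. Symbols came from the platform annotation, updated through RefSeq (12 changed): 5498 of 5716 yeast probe sets had 1 symbol and 218 had none, and 47 symbols had several probe sets, each kept apart. Here, log2(intensity + 1) of the deposited values was averaged over each window, and the within-culture differences of 7 dextrose cultures were fitted on strain means (limma 3.58.1 in R 4.3.3; lmFit, eBayes, 3 residual degrees of freedom), so that the strains share 1 estimate of the spread. A change was called at a Benjamini-Hochberg adjusted p of at most 0.05 over 5716 probe sets. The fit was tested on simulated data first. Replicate numbers did not pair cultures across strains, since deviations of same-numbered cultures correlated at 0.067, 0.159 and 0.013 for the 3 strain pairs. Array depth has no count here, and the number of arrays and cultures limits the precision.

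Named genes followed a rule that gave 283 probe sets: *CDC8* and genes the study's text names for these cells, the 15 largest non-overlapping called changes in each direction, up to 6 called members of each of 39 lists with the largest changes, all members of the histone, damage-induced, cyclin, network factor and nucleotide lists, and the 5 largest called differences in each direction from each strain and within the arrest. The members and lists were chosen with earlier results of these data known. The result of 1 list is not reported here. A list of periodic genes was not used, because the copy held was shortened. Alternatives were another pseudocount, quantile normalization, median centring, leaving out dim probe sets, a robust trended prior, other windows, other sets of cultures, a replicate block and leaving out each culture. Summaries were made with Python 3.11.15, numpy 2.4.6, pandas 2.3.3 and scipy 1.17.1, and plots with matplotlib 3.10.9.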

Additional observations from a re-analysis of the deposited data

Results flagged for a closer look

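The changes of *cdc8* cells were set against those of the other strains, and 2801 probe sets differed from *cdc20* cells and 2955 from *rad53* cells by the contrast of changes. Among genes named in the text, some were called in opposite directions in the strains as well. Against *cdc20* cells, *FMP16* (difference 3.61), *EMP46* (3.15), *HHT1* (2.16) and *PLM2* (1.71) rose in *cdc8* cells and fell in *cdc20* cells, and *MMP1* (-2.29) and *HMS2* (-2.12) did the reverse. Against *rad53* cells, *PLM2* (1.53) and *DUN1* (0.91) rose in *cdc8* cells and fell in *rad53* cells. The reverse held for *PCL1* (-3.84), *FRE4* (-2.99), *DSE1* (-2.80) and *BTN2* (-2.82). Continued oscillation in *cdc20* and *rad53* cells, which the study reports, may enter these values and was not tested. Both comparisons rest on the same *cdc8* cultures, and the part of *BAR1*, marker genes, the carbon shift and window times in these differences cannot be told apart from that of the named alleles.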

How the results depend on the processing

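The count of changed probe sets (3847) ranged from 2920 to 3964 over the alternatives, with 2930 without the pairing of windows within a culture (no replicate block). With a replicate block on culture numbers, 2838 probe sets differed between *cdc8* and *cdc20* cells and 2949 between *cdc8* and *rad53* cells, against 2801 and 2955, so the block changed neither count by 1.5 times. The 2-fold falls (168) numbered 258 with the first 3 arrest arrays only, and 116 to 269 when 1 culture was left out. Counts of 2-fold changes under the alternatives were added after seeing the data. The 2-fold rises (356) ranged from 255 to 424. Without 1 culture, 1861 to 2784 probe sets differed from *cdc20* cells, the lowest without *cdc20* culture 1. Late changes within the arrest (390) numbered 740 when the *cdc8* cultures were fitted alone, 382 of them among the 390, and 114 to 496 when 1 culture was left out. Where leaving out a culture leaves 1 for a strain, that culture is assumed to vary like the others. For named genes, no value reversed: 27 of 3153 values of the change from the first wave lost their call and 7 gained one, as did 2 and 7 of 301 for the difference from *cdc20*, 0 and 4 of 285 for that from *rad53*, and 4 and 0 of 207 for late changes. The cause of these shifts was not tested. Low intensities limit the folds of dim genes, and with 2 cultures a small change cannot be told from none.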
